A study of Mus musculus with 16 samples.

Results

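Insulin receptors, their docking proteins, the FOXO transcription factors and a few FOXO target genes were followed in colonic epithelium of mice carrying an epithelial Cre deletion of the mTORC2 subunit Rictor, with and without colitis. The set is 10 genes chosen by name, out of 56268 in the deposited table: the receptors Insr and Igf1r, the docking proteins Irs1 and Irs2, the factors Foxo1, Foxo3 and Foxo4, and the targets Pdk4, Txnip and Sesn3. RNA sequencing covered 16 libraries in 4 groups of 4. The cKO_DSS group held Rictor Flox; Villin-Cre mice whose drinking water held 3% DSS (dextran sulfate sodium), which damages the colon lining and causes colitis. WT_DSS mice carried Villin-Cre without the floxed Rictor alleles and received the same DSS. The cKO group had the genotype of the cKO_DSS group and the WT group that of the WT_DSS group, both on normal water. Every group therefore carried Villin-Cre, a transgene that expresses Cre recombinase in intestinal epithelium, so other cell types in the preparations keep Rictor. The sources used here give no age, sex or length of DSS treatment. Whether each library is a different mouse is also not stated, so a p-value here reflects only how far these samples spread, which may be technical.

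Insulin and IGF-1 bind receptor tyrosine kinases, which phosphorylate the IRS docking proteins; these recruit PI3-kinase, whose lipid product brings AKT to the membrane. mTORC2, of which Rictor is the defining subunit, phosphorylates the hydrophobic motif of AKT and of SGK kinases. Active AKT and SGK phosphorylate FOXO factors, which then leave the nucleus, so FOXO target genes are typically high when insulin signalling is low. Irs2 and Insr are themselves FOXO targets in liver and other tissues, and Pdk4, Txnip and Sesn3 are commonly used as FOXO readouts. Because FOXO activity is set mainly by phosphorylation and location, the RNA levels below measure neither.

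Values are FPKM (fragment counts scaled to gene length and library size), so levels can be compared between genes. Libraries held 13911823 to 16414914 reads recovered from the FPKM, with 19969 to 22738 genes above 0. Mitochondrial genes took 4.74 to 6.95% of reads in cKO_DSS and 5.56 to 7.34% in WT_DSS, against 7.67 to 15.1% in cKO and 7.66 to 11.3% in WT libraries, without overlap between DSS and water; the part of this in the DSS results was not tested. Fold changes are differences of log2(FPKM + 1) from 1 limma model over all 16 libraries, and a gene is called at a Benjamini-Hochberg adjusted p under 0.05 over the 13255 genes that reached 1 FPKM in at least 4 libraries. The 11 epithelial markers were all kept and summed to 8302 to 11068 FPKM in cKO_DSS, 7614 to 8856 FPKM in WT_DSS, 8092 to 8656 FPKM in cKO and 8524 to 10657 FPKM in WT libraries. Endothelial markers summed to at most 1.09 FPKM in any library, and the adipocyte hormones Adipoq, Lep and Retn were at 0 in every group. The whole adipocyte list of 7 genes summed to 3.11 to 5.99 FPKM over the libraries. Of it, Lpl was called higher in WT_DSS than in WT (log2 difference 0.74). The 15 leukocyte genes summed to 8.56 to 15.8 FPKM. Of 5 kept, Lyz2 was called higher with DSS in cKO (0.84) and WT (1.15), and Cd68 lower in WT (-0.50). The part of leukocytes and adipocytes in the DSS results was not tested. The targeted gene was lower on average in both mutant groups, without a call: Rictor averaged 2.51 ± 0.46 FPKM in cKO_DSS and 3.63 ± 0.57 FPKM in WT_DSS libraries (log2 difference -0.40, adjusted p = 0.0761, limma), and 2.47 ± 0.24 FPKM in cKO and 2.80 ± 0.44 FPKM in WT libraries (-0.13, adjusted p = 0.582, limma; SD, n = 4 each). A whole-gene value includes exons outside the deleted part and cells without Cre, and does not measure the deletion. The sex-linked genes differed between DSS and water: Xist, the X-inactivation RNA of female cells, was at 0 to 0.0141 FPKM in cKO_DSS, 0.00402 to 20.5 FPKM in WT_DSS, 44.7 to 105 FPKM in cKO and 33.2 to 64.9 FPKM in WT libraries. The summed level of 4 Y-linked genes was 27.7 to 45.5 FPKM in cKO_DSS, 29.0 to 38.7 FPKM in WT_DSS, 0 to 18.2 FPKM in cKO and 0 to 12.5 FPKM in WT libraries. In WT_DSS, Xist above 0.1 FPKM was confined to replicate 2. Single libraries held both: Xist and the Y-linked sum were 20.5 and 29.0 FPKM in WT_DSS 2, 44.7 and 18.2 FPKM in cKO 2, and 33.2 and 12.5 FPKM in WT 2, and cKO 1, WT 1 and WT 4 also held both (the labels do not say whether animals were pooled). The effect of DSS and the sex of the mice can therefore be told apart only weakly, and the DSS responses of members and the list counts are given also from a fit that carries the Y-linked level. The Y-linked sum did not overlap between DSS and water, so a call lost in that fit cannot be assigned to either. Within DSS, and within water, the genotypes overlapped in both measures. Libraries cKO_DSS 3 and 4 stood apart from the others on the second principal component, and results that rest on them are given with and without them.

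**Figure D1:**
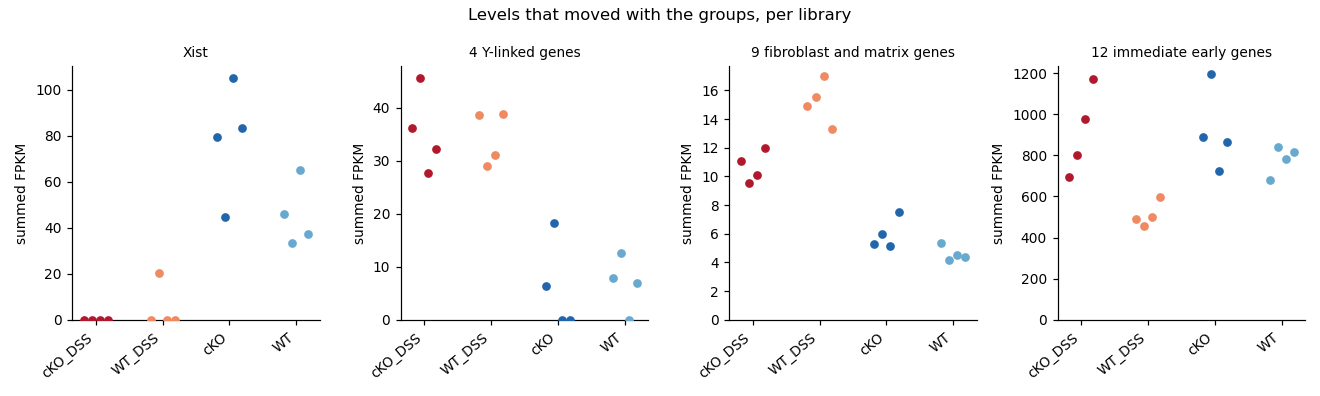
Summed FPKM of Xist, 4 Y-linked genes, 9 fibroblast and matrix genes and 12 immediate early genes in each library, by group; each point is 1 library. Xist is near 0 in the DSS libraries apart from WT_DSS replicate 2 at 20.5 FPKM, the fibroblast sum is highest in WT_DSS (13.3 to 17.0 FPKM), and the immediate early sum is lowest there (456 to 597 FPKM).

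On water, Txnip was by far the most abundant of the 10 genes, at 139 ± 7.68 FPKM in cKO and 147 ± 29.9 FPKM in WT libraries, and by its mean over all libraries it ranked 211 of 13255 kept genes. In WT, Foxo3 (15.8 FPKM) followed, then Foxo4 (12.5), Irs2 (9.06), Insr (8.67), Foxo1 (3.87), Sesn3 (2.62), Pdk4 (1.82), Igf1r (1.24) and Irs1 (0.446), all as means in FPKM. The ranges of Foxo4 and Irs2, of Irs2 and Insr, of Foxo1 and Sesn3, and of Sesn3 and Pdk4 overlapped in WT, so the order within those pairs is not settled, while the other neighbours were separate. The insulin receptor thus had several times the RNA of the IGF-1 receptor, and Irs2 far more than Irs1, in all 4 groups. In cKO_DSS, Irs2 stood directly after Txnip at 18.2 FPKM, with a range overlapping that of Foxo3 (17.3 FPKM), and Pdk4 at 8.53 FPKM stood above Foxo1 at 4.86 FPKM without overlap.

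**Figure D2:**
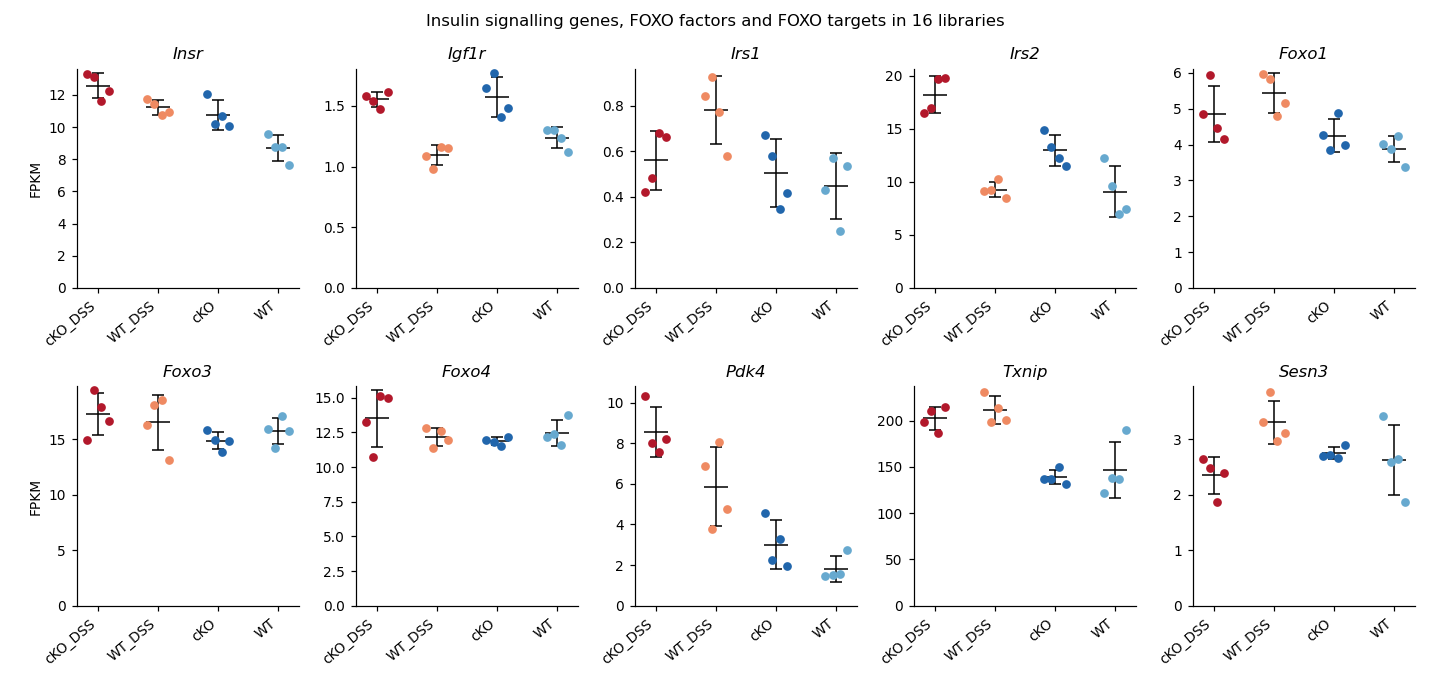
FPKM of the 10 genes in each library, by group, each on its own linear axis from 0; points are libraries, and bars are the mean and SD of 4. Irs2 is highest in cKO_DSS (16.4 to 19.8 FPKM), Pdk4 and Txnip are higher in each DSS group than in the water group of the same genotype without overlap, and Foxo3 and Foxo4 overlap in every comparison.

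Across the 4 pairwise comparisons, 9 of the 10 genes passed the filter. The exception was Irs1, which stayed under 1 FPKM in every library. In cKO against WT, 0 of the 9 were called by limma, where 0.0905% of all genes tested were. An unadjusted limma p under 0.05 was held by 4 (Insr, Igf1r, Irs2 and Pdk4, all with positive differences), and by 2404 of all 13255 genes. Voom on the recovered reads also called 0 there. A fit with sample quality weights called 1, Irs2, and in that fit 267 of all 13255 genes were called. In cKO_DSS against WT_DSS, 1 of 9 was called, Irs2, which was higher, where 3.7% of all genes were called and 2.03% called higher. In WT_DSS against WT, 4 of 9 were called, all higher (Pdk4, Txnip, Insr and Foxo1), where 28.5% of all genes were called and 15% called higher. In cKO_DSS against cKO, 3 of 9 were called, all higher (Pdk4, Txnip and Irs2), where 14.7% of all genes were called and 8.07% called higher. The difference of the DSS effect between genotypes was called for 0 of 9, with a background of 0.151%. An unadjusted limma p under 0.05 was held there by 2 of the 9, Irs2 and Sesn3, and by 3074 of all 13255 genes. The median log2 difference of the 9 genes was 0.10 in cKO against WT, 0.13 in cKO_DSS against WT_DSS, 0.26 in WT_DSS against WT and 0.20 in cKO_DSS against cKO, and that of all genes tested lay between -0.01 and 0.01 in these comparisons.

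**Figure D3:**
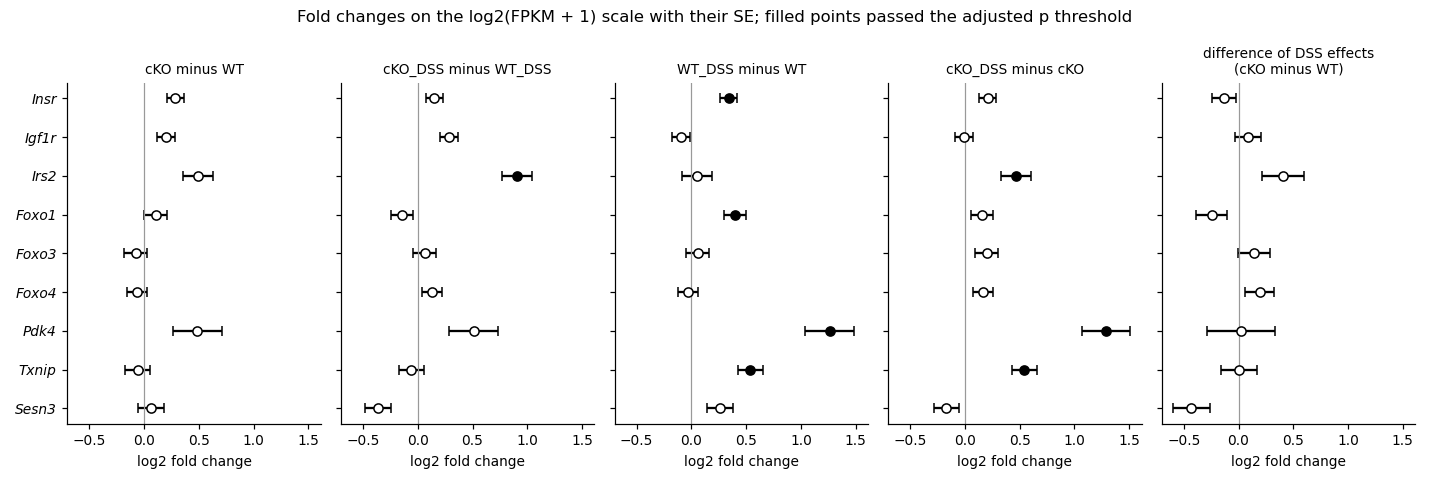
Differences on the log2(FPKM + 1) scale with their SE for the 9 genes tested, in 5 panels: cKO against WT, cKO_DSS against WT_DSS, WT_DSS against WT, cKO_DSS against cKO, and the difference between the DSS responses; filled points have an adjusted p under 0.05. Irs2 is the filled point in cKO_DSS against WT_DSS at 0.90, and Pdk4 is the largest filled point in both DSS panels (1.26 in WT and 1.29 in cKO).

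Irs2 encodes the docking protein that carries most insulin signalling in liver and in pancreatic beta cells. The deposited gene spans chr8:10984681-11008458 on the minus strand of mm10. Its level was 16.4, 16.9, 19.7 and 19.8 FPKM in cKO_DSS libraries, against 9.10, 9.23, 10.2 and 8.46 FPKM in WT_DSS libraries. On water it was 14.8, 13.2, 12.2 and 11.5 FPKM in cKO libraries, against 12.2, 9.59, 6.96 and 7.46 FPKM in WT libraries. After DSS the genotypes did not overlap, which 10% of all genes shared; on water a single WT library, replicate 1, reached into the cKO range. Irs2 was higher in cKO_DSS than in WT_DSS, with means of 18.2 ± 1.78 FPKM in cKO_DSS and 9.25 ± 0.724 FPKM in WT_DSS (SD, n = 4 each), a ratio of 1.97 and a log2 difference of 0.90 ± 0.14 (SE; adjusted p = 0.00399, limma). Without cKO_DSS 3 and 4 the difference was 0.79 with an adjusted p of 0.0826, and the remaining cKO_DSS libraries still lay above every WT_DSS library. On water the difference between cKO and WT was 0.49 ± 0.14, which did not pass (adjusted p = 0.130, limma). Averaged over both treatments, a contrast chosen after the values had been seen, Irs2 was higher in cKO by 0.70 ± 0.10 (adjusted p = 0.00167, limma; 2% of all genes were called). The DSS response of Irs2 was 0.46 ± 0.14 in cKO (adjusted p = 0.0333, limma) and 0.05 ± 0.14 in WT (adjusted p = 0.795, limma), and the difference between these responses, 0.41 ± 0.19, was not called (adjusted p = 0.215, limma). Under GC correction the WT response was 0.30 and that difference 0.12 (adjusted p = 0.824). The response in cKO was lost without the filter on low values (adjusted p = 0.0716), under quantile normalization (0.0551) or GC correction (0.0534), without cKO_DSS 3 and 4 (0.35, adjusted p = 0.187), without cKO 2, 3 or 4 or cKO_DSS 3 or 4 singly (lowest difference 0.41, highest adjusted p = 0.0961), and in the fit with the Y-linked level (0.22, adjusted p = 0.601).

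Immediate early genes, the transcription factors and phosphatases induced within minutes of growth factor signals, also differed between the genotypes after DSS. Their 12 genes summed to 696 to 1172 FPKM in cKO_DSS, 456 to 597 FPKM in WT_DSS, 724 to 1196 FPKM in cKO and 681 to 839 FPKM in WT libraries. Of 11 kept, 7 were called higher in cKO_DSS than in WT_DSS, where 2.03% of all genes were. Among them were Egr1 (log2 difference 1.17, the smallest p), Fosb (1.28) and Junb (1.18). Without cKO_DSS 3 and 4 the count called higher was 0, where 22 of all 13255 genes were called higher. With DSS, 8 of the 11 were called lower in WT (list median -0.81), and 0 were called in cKO (-0.03). Irs2 was called higher with DSS in cKO and was not called in WT. The difference between the DSS responses of the genotypes was called for 0 of the 11 (list median 0.53). For Irs2 it was 0.41 and was not called. Egr2 was at 0 in every group. The 10 glucocorticoid-responsive genes summed to 240 to 273 FPKM in cKO_DSS and 173 to 212 FPKM in WT_DSS libraries, with 1 of 9 kept genes called higher, Errfi1 (0.81). The part of either list in the Irs2 difference was not tested.

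The promoter windows of both docking proteins, which run from 250 bases before to 50 after the RefSeq start on GRCm38.p6, are shown because Irs2 carries the genotype difference and Irs1 is its paralog. The Irs2 window is chr8:11008880-11009179, minus strand, and lies upstream of the deposited gene. The Irs1 window is chr1:82291390-82291689, minus strand. Capitals mark the E-box CACGTG and the run TGTTTTG, a form of the insulin response element bound by FOXO factors, whose choice followed sight of the windows.
Irs2: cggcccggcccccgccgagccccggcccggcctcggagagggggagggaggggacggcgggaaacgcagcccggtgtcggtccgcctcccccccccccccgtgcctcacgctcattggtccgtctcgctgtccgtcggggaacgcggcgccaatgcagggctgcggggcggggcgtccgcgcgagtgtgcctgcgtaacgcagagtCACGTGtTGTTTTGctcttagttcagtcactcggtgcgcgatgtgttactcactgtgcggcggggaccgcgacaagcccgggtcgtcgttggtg
Irs1: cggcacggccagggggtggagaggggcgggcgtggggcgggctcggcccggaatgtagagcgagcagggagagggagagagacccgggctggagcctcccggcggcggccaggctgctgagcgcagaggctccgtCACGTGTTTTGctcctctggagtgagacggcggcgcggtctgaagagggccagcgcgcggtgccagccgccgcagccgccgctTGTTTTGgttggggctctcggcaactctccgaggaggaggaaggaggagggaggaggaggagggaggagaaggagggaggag
In Irs2 the E-box began at -44 and TGTTTTG at -37 from the annotated start, with 1 base between them. In Irs1 they began at -115 and -111 and overlapped by 2 bases, and a further TGTTTTG began at -32. On both strands, CACGTG was present in 7.15% and TGTTTTG in 6.28% of 32851 RefSeq windows of this length, and 0.408% held both. Among the 8 of the 10 genes with a window in the table, Irs1 and Irs2 were the ones holding either motif. These are matches of letters and no measure of binding.

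Irs1 encodes the docking protein that dominates insulin signalling in muscle and fat. Its level was 0.420, 0.483, 0.680 and 0.662 FPKM in cKO_DSS libraries, 0.843, 0.929, 0.772 and 0.580 FPKM in WT_DSS libraries, 0.673, 0.581, 0.346 and 0.417 FPKM in cKO libraries, and 0.432, 0.570, 0.249 and 0.535 FPKM in WT libraries. These rest on 34 to 122 reads per library, so single values are imprecise. WT_DSS lay above WT without overlap, by a narrow margin (ratio of means 1.75), where 28.3% of all genes were free of overlap. The other comparisons overlapped. In a fit without the filter on low values the WT_DSS against WT difference was 0.30 with an adjusted p of 0.0892 (limma). The higher Irs2 of cKO_DSS libraries was accompanied by Irs1 levels that averaged 0.561 FPKM there and 0.781 FPKM in WT_DSS, a difference of -0.19 in the same fit that was not called (adjusted p = 0.529, limma).

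Both receptors were measured at higher mean levels in cKO than in WT under each treatment, though no pairwise genotype difference was called. Insr (chr8:3122061-3279617, minus strand) had 13.3, 13.1, 11.6 and 12.2 FPKM in cKO_DSS libraries and 11.7, 11.5, 10.8 and 10.9 FPKM in WT_DSS libraries. It had 12.1, 10.2, 10.7 and 10.1 FPKM in cKO libraries and 9.59, 8.74, 8.76 and 7.61 FPKM in WT libraries. On water the genotypes did not overlap, as was the case for 15.5% of all genes there, while after DSS they did. The genotype difference was 0.28 ± 0.08 on water (adjusted p = 0.131) and 0.15 ± 0.08 after DSS (adjusted p = 0.293), both by limma. Insr rose with DSS in WT, to 11.2 ± 0.449 FPKM in WT_DSS against 8.67 ± 0.812 FPKM in WT (0.34 ± 0.08, adjusted p = 0.00721, limma; SD, n = 4 each). In cKO the DSS difference was 0.21 ± 0.08 and was not called (adjusted p = 0.0879), though it was under GC correction (adjusted p = 0.0378) and length correction (0.0353), and the difference between both responses was -0.13 ± 0.11 (adjusted p = 0.475, limma). With the Y-linked level in the fit the WT response was 0.32 with an adjusted p of 0.0723, and without WT 4 and WT_DSS 2 it was 0.28 with an adjusted p of 0.0541. Length correction brought it to 0.18 (adjusted p = 0.0347).

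Igf1r (chr7:67952827-68233668, plus strand), the receptor for IGF-1, had 1.58, 1.54, 1.47 and 1.62 FPKM in cKO_DSS libraries and 1.09, 0.978, 1.16 and 1.15 FPKM in WT_DSS libraries. On water it had 1.65, 1.77, 1.41 and 1.48 FPKM in cKO libraries and 1.30, 1.30, 1.23 and 1.12 FPKM in WT libraries. The 8 cKO values thus all exceeded the 8 WT values within and across treatments. Being higher without overlap in both genotype comparisons held for 69 genes, 0.521% of those tested. The differences were 0.29 ± 0.08 after DSS (adjusted p = 0.0722) and 0.20 ± 0.08 on water (adjusted p = 0.238), neither called by limma. Length correction left 0.055 on water (adjusted p = 0.788) and 0.31 after DSS (adjusted p = 0.0773). Averaged over treatments the difference was 0.24 ± 0.06 (adjusted p = 0.0489, limma), at the edge of the threshold: leaving out any 1 of the 16 libraries gave adjusted p-values of 0.0577 to 0.110. Because these levels lie close to the pseudocount of 1, the log2 scale understates the change; the ratio of means was 1.42 after DSS and 1.27 on water, and voom on the recovered reads gave 0.51 after DSS (adjusted p = 0.0148). DSS left no called difference in Igf1r in either genotype (-0.01 in cKO and -0.10 in WT).

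Foxo1, Foxo3 and Foxo4 showed 1 called difference among 12 pairwise tests, that of Foxo1 in WT_DSS against WT, where 28.5% of all genes were called. Foxo1 (chr3:52268336-52353221, plus strand), the factor best known for raising liver glucose output, had 4.86, 5.95, 4.47 and 4.14 FPKM in cKO_DSS libraries and 5.96, 5.82, 4.78 and 5.16 FPKM in WT_DSS libraries. It had 4.26, 3.85, 4.88 and 3.98 FPKM in cKO libraries and 4.01, 3.87, 4.23 and 3.38 FPKM in WT libraries. WT_DSS lay above WT without overlap, where 28.3% of all genes were free of overlap, and the 2 cKO groups overlapped. Foxo1 rose with DSS in WT by 0.40 ± 0.10 (adjusted p = 0.0116, limma), a ratio of 1.40, while the difference in cKO was 0.15 ± 0.10 (adjusted p = 0.346); the difference between the responses was not called (-0.24 ± 0.14, adjusted p = 0.304, limma). With the Y-linked level the WT response was 0.47 (adjusted p = 0.0478), and without WT 4 and WT_DSS 2 it was 0.32 (adjusted p = 0.0890). Foxo3, a regulator of stress resistance and cell survival, ranged over 15 to 19.5 FPKM in cKO_DSS, 13.1 to 18.6 FPKM in WT_DSS, 13.9 to 15.8 FPKM in cKO and 14.2 to 17.1 FPKM in WT libraries. Foxo4, the X-linked member, ranged over 10.7 to 15.1 FPKM in cKO_DSS, 11.4 to 12.8 FPKM in WT_DSS, 11.5 to 12.2 FPKM in cKO and 11.6 to 13.8 FPKM in WT libraries. Both overlapped in every comparison, with log2 differences of -0.08 to 0.20 for Foxo3 and -0.06 to 0.16 for Foxo4.

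Pdk4 encodes pyruvate dehydrogenase kinase 4, which inhibits pyruvate dehydrogenase and turns cells from glucose to fatty acid oxidation. It had the largest DSS response of the set. Pdk4 (chr6:5483351-5496309, minus strand) had 10.3, 8.0, 7.59 and 8.19 FPKM in cKO_DSS libraries and 4.57, 2.24, 3.29 and 1.95 FPKM in cKO libraries. In the control genotype it had 6.86, 3.79, 8.08 and 4.74 FPKM in WT_DSS libraries and 1.47, 1.5, 1.54 and 2.77 FPKM in WT libraries. All DSS libraries exceeded all water libraries of their genotype, where 19.1% of all genes in cKO and 28.3% in WT were free of overlap. WT replicate 4 was the highest WT value by a wide gap. Pdk4 rose with DSS by 1.29 ± 0.22 in cKO (adjusted p = 0.00166, limma), with means of 8.53 ± 1.23 FPKM in cKO_DSS and 3.01 ± 1.19 FPKM in cKO, a ratio of 2.83. It rose by 1.26 ± 0.22 in WT (adjusted p = 0.00186, limma), with means of 5.87 ± 1.95 FPKM in WT_DSS and 1.82 ± 0.631 FPKM in WT, a ratio of 3.22. The difference between the responses was 0.02 ± 0.31 (adjusted p = 0.971, limma). The genotype differences were 0.51 ± 0.22 after DSS and 0.49 ± 0.22 on water, with overlapping groups and no call (adjusted p = 0.209 and 0.264, limma). With the Y-linked level in the fit the response was 1.18 in cKO (adjusted p = 0.0734) and 1.18 in WT (adjusted p = 0.0327).

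Txnip encodes an arrestin-like protein that binds thioredoxin and limits glucose uptake. Txnip (chr3:96557957-96561883, plus strand) had 198, 210.0, 187 and 214 FPKM in cKO_DSS libraries and 137, 137, 149.7 and 132 FPKM in cKO libraries. It had 231, 199, 214 and 200.4 FPKM in WT_DSS libraries and 122, 137, 137 and 190.2 FPKM in WT libraries. The DSS and water groups of each genotype did not overlap, as was the case for 19.1% of all genes in cKO and 28.3% in WT. WT replicate 4 was the highest water value. Txnip rose with DSS by 0.54 ± 0.12 in cKO (adjusted p = 0.00647, ratio 1.46) and by 0.54 ± 0.12 in WT (adjusted p = 0.00521, ratio 1.44), both by limma. The genotypes differed by -0.06 after DSS and by -0.06 on water, with overlap. In the fit with the Y-linked level the response was 0.53 in cKO (adjusted p = 0.121) and 0.53 in WT (adjusted p = 0.0516).

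Fibroblast and matrix genes moved with the DSS response as well. Their 9 genes summed to 9.54 to 12 FPKM in cKO_DSS, 13.3 to 17.0 FPKM in WT_DSS, 5.18 to 7.55 FPKM in cKO and 4.17 to 5.33 FPKM in WT libraries. Of 5 kept, 4 were called higher in cKO_DSS than in cKO and 5 higher in WT_DSS than in WT, where 8.07% and 15% of all genes were. With the Y-linked level in the fit these counts were 1 in cKO and 5 in WT, where 210 and 511 of all genes were called higher. These levels are low beside those of the epithelial markers. Called genes of epithelial types are counted below. In either direction, 14.7% of all genes were called with DSS in cKO and 28.5% in WT. Of 10 crypt stem and cycling genes, 7 were lower in cKO_DSS than in cKO (list median -0.57), and 3 lower and 1 higher in WT_DSS than in WT. Of 9 enteroendocrine genes, 6 were higher in cKO_DSS than in cKO (0.68), and 4 higher and 1 lower in WT_DSS than in WT. Of 10 goblet genes, 4 were higher and 1 lower in cKO_DSS than in cKO, and 3 higher in WT_DSS than in WT. The goblet share called in WT, 30%, lay near that of all genes. Of 10 absorptive colonocyte genes, 30% were called in cKO (1 higher and 2 lower) and 20% in WT (0 higher and 2 lower). Of 11 epithelial markers, 18.2% were called in each genotype, in opposite directions: 2 higher with DSS in cKO and 2 lower in WT. Of 11 immediate early genes, 0 were called between cKO_DSS and cKO and 8 were lower in WT_DSS than in WT. In bulk RNA, fewer cells of a type and less RNA per cell cannot be told apart, and the part of these lists in the Pdk4, Txnip, Irs2, Insr and Foxo1 responses was not tested.

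Pdk4 and Txnip share their DSS response, and their promoter windows are shown for that reason. The Txnip window is chr3:96557707-96558006, plus strand, and the Pdk4 window is chr6:5496229-5496528, minus strand, both RefSeq on GRCm38.p6. Capitals mark the forkhead motif GTAAACA.
Txnip: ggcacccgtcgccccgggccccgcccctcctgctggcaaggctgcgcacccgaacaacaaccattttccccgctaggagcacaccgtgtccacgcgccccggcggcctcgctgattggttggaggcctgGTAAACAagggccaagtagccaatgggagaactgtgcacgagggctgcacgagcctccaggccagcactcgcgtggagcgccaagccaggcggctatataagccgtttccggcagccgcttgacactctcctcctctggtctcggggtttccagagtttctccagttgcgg
Pdk4: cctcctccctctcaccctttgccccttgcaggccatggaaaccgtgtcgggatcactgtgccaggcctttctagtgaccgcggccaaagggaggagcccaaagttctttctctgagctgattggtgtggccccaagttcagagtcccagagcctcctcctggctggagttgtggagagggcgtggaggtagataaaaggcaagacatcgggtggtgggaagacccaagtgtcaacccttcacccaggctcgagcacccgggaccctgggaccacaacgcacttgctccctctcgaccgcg
GTAAACA, searched with its reverse complement TGTTTAC, began at -121 in Txnip and was in none of the other 7 windows of the set, against 3.65% of all windows. None of the 3 motifs was in the Pdk4 window, which says only that these letters are not in these 300 bases. Insr and Foxo4 have no window in the table.

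Sesn3 encodes sestrin 3, a stress-inducible protein that restrains mTORC1. Sesn3 (chr9:14275067-14333101, plus strand) had 2.65, 2.48, 1.86 and 2.39 FPKM in cKO_DSS libraries and 3.30, 3.85, 2.96 and 3.11 FPKM in WT_DSS libraries. It had 2.69, 2.72, 2.67 and 2.90 FPKM in cKO libraries and 3.41, 2.59, 2.63 and 1.86 FPKM in WT libraries. After DSS every cKO_DSS value lay below every WT_DSS value and narrowly below every cKO value. In these comparisons 10% and 19.1% of all genes did not overlap. Its difference of -0.37 ± 0.12 between cKO_DSS and WT_DSS was opposite in sign to that of Irs2 and was not called (adjusted p = 0.0951, limma). The DSS difference was -0.17 ± 0.12 in cKO and 0.26 ± 0.12 in WT, and the difference between them, -0.43 ± 0.17, had the smallest interaction p of the set and was not called (adjusted p = 0.155, limma). It was -0.28 under GC correction, -0.27 under length correction and -0.26 without WT 4 and WT_DSS 2.

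The rest of the pathway was counted in 6 lists of related genes. In cKO against WT, 0 genes of any list were called. Beyond the receptors, 4 of 14 insulin and IGF ligands and binding proteins were kept; Igfbp7, a secreted IGF-binding protein, was called higher in WT_DSS than in WT (2.72 ± 0.506 FPKM in WT_DSS and 1.03 ± 0.211 FPKM in WT, difference 0.87), and no other was called in any pairwise comparison.

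Among 18 tested genes of the relay from PI3-kinase to AKT and SGK, 1 was called higher and 1 lower in cKO_DSS against WT_DSS. The lower gene was Pik3r3, a regulatory subunit of PI3-kinase, at 4.55 ± 0.457 FPKM in cKO_DSS and 7.45 ± 0.382 FPKM in WT_DSS (-0.61 ± 0.11, adjusted p = 0.0132, limma). With DSS, 2 of the 18 rose and 1 fell in cKO, and 5 rose and 2 fell in WT, which is 16.7% and 38.9% of the list beside 14.7% and 28.5% of all genes. Sgk1, a kinase that phosphorylates FOXO3, rose by 0.90 in cKO to 56.3 ± 12.5 FPKM in cKO_DSS, against 30.5 ± 10.2 FPKM in cKO. Pdpk1, the kinase that activates AKT and SGK, and the catalytic subunits Pik3ca and Pik3cb rose in WT by 0.57, 0.51 and 0.48. The median difference of the relay was 0.05 in cKO_DSS against WT_DSS, 0.07 in cKO_DSS against cKO and 0.06 in WT_DSS against WT.

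Of 16 tested brakes on insulin signalling, Socs3 was called higher in cKO_DSS than in WT_DSS (11.1 ± 3.58 FPKM in cKO_DSS and 5.22 ± 0.717 FPKM in WT_DSS, 0.93 ± 0.19, adjusted p = 0.0193, limma). SOCS proteins bind cytokine receptors and promote the degradation of IRS proteins. With DSS, 3 rose in cKO, namely Socs1 (0.93), Socs3 (0.94) and Cish (0.44). In WT 3 rose and 2 fell, with Socs1 higher by 0.76. The shares called, 18.75% in cKO and 31.25% in WT, lie near the 14.7% and 28.5% of all genes. The genes of this list that fell in WT were Eif4ebp1 (-0.82), a translation repressor under mTORC1, and Sh2b1 (-0.69). Sh2b1 is an adaptor that enhances insulin receptor signalling and so is no brake, but the counts of this list include it. Of 20 tested FOXO regulators and cofactors, 1 was called in cKO_DSS against WT_DSS, Sfn, a phosphoserine-binding protein of the family that holds FOXO in the cytoplasm, which was higher by 1.02 (131 ± 43.3 FPKM in cKO_DSS and 62.6 ± 14.8 FPKM in WT_DSS). With DSS, 1 rose and 1 fell in cKO, and 3 rose and 2 fell in WT, with Ywhag, of the same family as Sfn, higher in both (0.42 in cKO and 0.37 in WT) and Sfn lower in WT_DSS than in WT (-0.73). Foxo6, the remaining FOXO factor, was also lower there (0.940 ± 0.563 FPKM in WT_DSS and 2.13 ± 0.386 FPKM in WT, -0.72, adjusted p = 0.00883, limma). The shares called in this list, 10% in cKO and 25% in WT, lie below those of all genes.

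Of 40 further known FOXO target genes, 36 were tested. In cKO_DSS against WT_DSS 2 were higher and 0 lower: Klf2, a transcription factor of quiescent T cells and endothelium (1.24, 9.54 ± 3.70 FPKM in cKO_DSS and 3.27 ± 0.774 FPKM in WT_DSS), and Trib1, a pseudokinase (0.55). The median of the 36 was -0.06 in that comparison, and the share called was 5.56%, against 3.7% of all genes. With DSS, 6 rose and 3 fell in cKO, and 13 rose and 1 fell in WT. Tnfsf10, the death ligand TRAIL, had the largest rise in both, by 1.07 in cKO (15.8 ± 3.66 FPKM in cKO_DSS and 6.89 ± 0.483 FPKM in cKO) and by 1.91 in WT (24.6 ± 3.96 FPKM in WT_DSS and 5.87 ± 1.5 FPKM in WT). Cdkn1a, the cell cycle inhibitor p21, fell in both, by 0.33 in cKO and by 0.52 in WT. Klf6 rose in both, by 0.49 in cKO and by 0.48 in WT, and Map1lc3b, an autophagosome protein, by 0.48 in WT. The medians were 0.10 in cKO_DSS against cKO and 0.18 in WT_DSS against WT. The share called, 25% in cKO and 38.9% in WT, stands beside 14.7% and 28.5% of all genes. The count in WT changed with single libraries, with 7 higher without WT 3, 8 without WT_DSS 1, and 9 without WT 4, WT_DSS 2 or WT_DSS 4. Over all genes the count called higher, 1990 with all libraries, was 1372, 1213, 1317, 1332 and 1385 in these fits, in that order. Without WT 1 the list held 14 higher and 4 lower, beside 2012 and 1749 of all genes. In the fit with the Y-linked level the list held 0 higher in cKO and 3 higher in WT, beside 210 and 511 of all genes.

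Relatives and partners of Pdk4, Txnip and Sesn3 did not move as 1 group. In cKO_DSS against WT_DSS 0 of 18 were higher and 2 lower, Pdk1 (-0.45, 6.13 ± 0.194 FPKM in cKO_DSS and 8.72 ± 0.433 FPKM in WT_DSS) and Pdp2 (-0.34), the kinase paralog of Pdk4 and an opposing phosphatase. With DSS, 2 rose and 3 fell in cKO, and 6 rose and 2 fell in WT, which is 27.8% and 44.4% of the list beside 14.7% and 28.5% of all genes. Arrdc4, the arrestin-domain paralog of Txnip, rose by 0.71 in cKO and by 0.96 in WT, to 35.8 ± 6.27 FPKM in cKO_DSS against 21.2 ± 1.85 FPKM in cKO, and to 33.7 ± 4.70 FPKM in WT_DSS against 17.2 ± 4.57 FPKM in WT. Mlxipl and Mlxip encode glucose-responsive factors known to activate Txnip and Arrdc4: Mlxipl fell by 0.75 in cKO and by 0.96 in WT, while Mlxip rose by 0.30 in cKO and by 0.33 in WT.

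The list calls between cKO_DSS and WT_DSS were lost in some fits. Without cKO_DSS 3, without WT_DSS 2, or without cKO_DSS 3 and 4, 0 genes of these lists were called there. Over all 13255 genes the calls fell from 491 to 107, 78 and 33 in these fits. The FOXO targets held 1 higher and 3 lower without WT_DSS 3, and 2 higher and 2 lower without cKO_DSS 1, so their direction in this comparison was not stable. In those fits 342 and 470 of all genes were called higher, and 235 and 416 lower. With the Y-linked level in the fit, the DSS response in cKO left 1 higher in the relay and 1 higher among FOXO regulators, with 0 among the ligands, the brakes and the relatives. In WT it left 1 higher among the ligands, 3 higher in the relay, 0 higher and 1 lower among the brakes, 1 higher and 0 lower among FOXO regulators, and 2 higher and 2 lower among the relatives. Over all genes that fit called 210 higher and 89 lower in cKO, and 511 higher and 352 lower in WT. Without WT 4 and WT_DSS 2, the WT response held 3 higher and 1 lower in the relay, 1 and 1 among the brakes, 1 and 0 among FOXO regulators, 5 and 1 among FOXO targets, and 3 and 2 among the relatives. Over all genes it held 806 higher and 646 lower in that fit. Leaving out 1 of WT 3, WT 4, WT_DSS 1 or WT_DSS 2 also left 1 higher brake and 1 higher FOXO regulator, as did WT_DSS 4 for the brakes, while 6 FOXO regulators were higher without WT 1 or cKO_DSS 2, and 3 relatives were higher without WT 2. Over all genes, 1372 were called higher without WT 3, 1317 without WT 4, 1213 without WT_DSS 1, 1332 without WT_DSS 2 and 1385 without WT_DSS 4. That count was 2012 without WT 1, 2256 without cKO_DSS 2 and 1724 without WT 2, against 1990 with all libraries. In cKO, the relay held 1 higher and 0 lower without WT_DSS 1, cKO_DSS 1 or cKO_DSS 4. There the FOXO targets held 5 higher and 0 lower without cKO 3, and 4 higher and 1 lower without cKO_DSS 1, and the relatives 2 higher and 1 lower without cKO 1 or cKO_DSS 4. Over all genes, the cKO response held 964 higher and 790 lower without WT_DSS 1, and 949 and 770 without cKO_DSS 1. It held 866 and 647 without cKO_DSS 4, 794 and 588 without cKO 3, and 780 and 620 without cKO 1. With all libraries it held 1070 and 880.

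**Figure D4:**
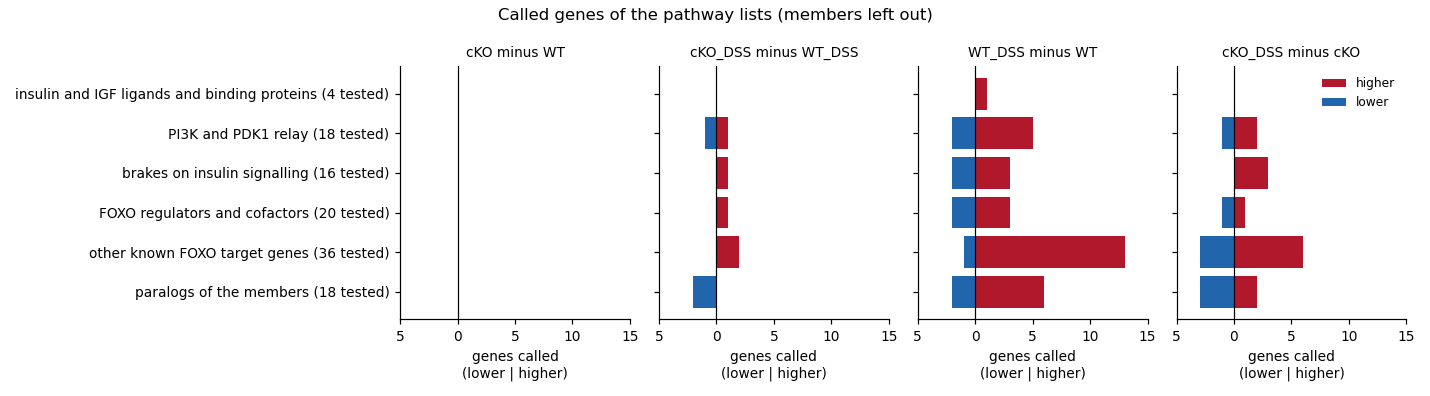
Number of genes called higher (right of 0) and lower (left of 0) in each of 6 lists, with the 10 genes left out, in 4 comparisons. No list has a called gene in cKO against WT, and the longest bar is the 13 higher genes among 36 further FOXO targets in WT_DSS against WT.

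The kept genes whose levels ran most like a member's over the 16 libraries were ranked by Pearson's r of log2(FPKM + 1), a description in which the libraries share their conditions. For Irs2 these were Dapk1 (r = 0.94), Dst (0.89) and Cwh43 (0.88), and after the group means were removed r was 0.72, 0.54 and 0.43. For Igf1r they were Egr1 (0.90), Gpr137b-ps (0.89) and Arc (0.89), and within groups r was 0.43, 0.42 and 0.70. Egr1 and Arc are immediate early genes. For Pdk4 they were Tgif1 (0.94), Ston2 (0.92) and Fzd1 (0.92), with 0.63, 0.56 and 0.70 within groups. For Txnip they were Fam53c (0.95), Tppp (0.95) and Tapbp (0.93), with 0.81, 0.73 and 0.62 within groups. For Insr they were Mgam2-ps (0.94), Dsg2 (0.93) and Spred1 (0.92), with 0.77, 0.72 and 0.47 within groups. For Foxo1 they were Rnf128 (0.97), Tmtc4 (0.95) and Ppp4r3b (0.95), and here the r within groups was nearly as high, 0.91 to 0.94.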

How the data were processed

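Colonic epithelium was profiled by RNA sequencing in 16 libraries, 4 per group; groups and replicate numbers follow the labels. Per the labels' protocols, adapter-containing and poor reads were discarded before alignment. The submitters' processing notes name featureCounts 1.5.0-p3, DESeq2 1.20.0 and mm10. The aligner, the annotation release and whether strand was used in counting are not stated, so reads of a gene and of one overlapping it may be mixed; those annotated across a member all fell below the filter. The authors deposited FPKM for 56268 genes, with positions and lengths.

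FPKM times gene length, scaled by a library size fitted for each library, gave whole reads within 0.05 for all values. Pdk4 rests on 77 to 538 and Igf1r on 236 to 453 reads a library. The analysis used log2(FPKM + 1) of 13255 genes that reached 1 FPKM in 4 or more libraries. Limma 3.58.1 in R 4.3.3 (1 mean per group, eBayes with a trend, two-sided) gave 5 comparisons with Benjamini-Hochberg adjustment over all these genes, after the code had been tested on simulated data. Alternatives were another pseudocount (0.1), filtering (none, or 5 FPKM) and scaling (quantile, or medians shifted), sample weights, a replicate block, loess correction (span 0.5) for length or for GC (longest transcript, GENCODE M21, 97.1% of genes), the 8 libraries compared alone, voom on recovered reads, the Y-linked level, and libraries left out. The contrast averaged over treatments, the motif TGTTTTG and the list counts under other fits were added after seeing the data.

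The members and lists were chosen with earlier results of these data known. All members are described; of each list, up to 4 called genes with the smallest p are named (Cdkn1a in cKO was added beside its WT value after its value was seen), and for each called member the 3 kept genes with the highest r. Sequences are RefSeq windows on GRCm38.p6; no protein sequence was used here. Some list genes are counted but not reported here by name.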

Additional observations from a re-analysis of the deposited data

Results flagged for a closer look

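Pdk4 in WT replicate 4 was 2.77 FPKM, far from the other WT libraries at 1.47, 1.5 and 1.54 FPKM: its gap to the nearest of them was 0.941 of the range of the group, above the 95% critical value of Dixon's test for 4 samples. Chance alone gives such a gap in about 1 of 20 groups. Without WT replicate 4 and WT_DSS replicate 2 the Pdk4 difference between WT_DSS and WT was 1.57 (adjusted p = 0.0013, limma).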

How the results depend on the processing

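In 16 fits that each left out 1 library, the number of the 9 genes called was 0 to 0 in cKO against WT, 1 to 2 in cKO_DSS against WT_DSS (2 without WT 4, adding Sesn3), 4 to 5 in WT_DSS against WT (5 without WT 1, adding Sesn3), 2 to 4 in cKO_DSS against cKO (4 without cKO_DSS 2, adding Foxo4), 0 to 0 for the difference of responses and 1 to 1 for the contrast averaged over treatments, which lost Igf1r. Sample quality weights called 1 in cKO against WT (Irs2), 5 in cKO_DSS against WT_DSS (Foxo1, Foxo4, Igf1r, Irs2 and Sesn3) and 2 for the difference of responses (Foxo1 and Sesn3). In that fit 267, 3485 and 3728 of all 13255 genes were called in these comparisons. In cKO_DSS against WT_DSS, length correction called 2 (Irs2 and Sesn3), voom 2 (Igf1r and Irs2), and the fit without cKO_DSS 3 and 4 called 0. Over all genes these fits called 538, 598 and 33. The Y-linked level left 2 in WT_DSS against WT (Foxo1 and Pdk4) and 0 in cKO_DSS against cKO, where 863 and 299 of all genes were called. Without WT 4 and WT_DSS 2, 2 were left in WT_DSS against WT (Pdk4 and Txnip), where 1452 of all genes were called. The averaged contrast called 1 (Irs2) without the filter, under quantile normalization, a shift of medians or length correction, without cKO_DSS 3 and 4, and without WT 4 and WT_DSS 2. No called difference changed sign in any fit. The cause of these changes was not tested. For samples with the same replicate number, r of the deviations from group means was -0.199 to 0.2995 over 24 pairs (median 0.017, 6 over 0.1). For other numbers it was -0.251 to 0.276 over 72 pairs (median -0.019, 10 over 0.1). With 4 libraries a group, these values cannot settle whether the numbers pair the samples. With a replicate block the counts were 0, 1, 4, 3 and 0 in the 5 comparisons, as without it. The averaged contrast then called Irs2 and Insr in place of Irs2 and Igf1r.

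Over all genes, counts that moved by more than 1.5 times in fits other than those leaving out 1 library were as follows. In cKO against WT (12 called) they were 2 without the filter and with the replicate block, with or without GC correction, 20 under either scaling, 6 on the 8 libraries, 29 by voom and 267 with sample weights. In cKO_DSS against WT_DSS (491) they were 209 without the filter, 96 on the 8 libraries, 33 without cKO_DSS 3 and 4, 117 without WT 4 and WT_DSS 2 and 3485 with sample weights. In WT_DSS against WT (3778) they were 863 with the Y-linked level and 1452 without WT 4 and WT_DSS 2, and in cKO_DSS against cKO (1950) 299 with the Y-linked level and 3060 with sample weights. For the difference of responses (20, of which 6 higher) they were 4 without the filter, 46 at 5 FPKM, 11 (2 higher) by quantiles, 36 (19 higher) with medians shifted, 13 with the block, 9 with GC correction, 4 with both, 68 by voom, 7 with the Y-linked level, 3728 with sample weights, and 0 without either pair of libraries. For the averaged contrast (265) they were 142 without the filter, 113 without WT 4 and WT_DSS 2, 460 with GC correction, 481 with GC correction and block, and 776 with sample weights. Fits that left out 1 library each gave 2 to 111 in cKO against WT (highest without cKO_DSS 2), 78 to 886 in cKO_DSS against WT_DSS (lowest without WT_DSS 2, highest without cKO_DSS 1), 2240 to 4258 in WT_DSS against WT (lowest without WT_DSS 1), 1305 to 2153 in cKO_DSS against cKO, 0 to 1240 for the difference of responses (highest without cKO_DSS 2, and 393 without cKO_DSS 1) and 144 to 418 for the averaged contrast. By total reads Irs1, Pdk4 and Igf1r are the members measured least precisely, with 34 to 122, 77 to 538 and 236 to 453 reads a library.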

Other observations

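Members did not vary as 1 block over the 16 libraries. Across libraries, r of log2(FPKM + 1) was 0.83 between Pdk4 and Txnip, 0.80 between Insr and Pdk4 and 0.78 between Igf1r and Irs2. With the group means removed these were 0.57, 0.12 and 0.42. Within groups the largest value of either sign was -0.78, between Foxo1 and Foxo4, and the next was 0.72, between Insr and Sesn3. Libraries share depth and composition, and these are descriptions over 36 pairs of genes with no test.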
